A study of Mus musculus with 20 samples.

Results

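The axonal injury kinase cascade was followed here through 10 genes: the mixed lineage kinases Map3k12 (DLK, dual leucine zipper kinase) and Map3k13 (LZK, leucine zipper kinase), the MAP2 kinases Map2k4 and Map2k7, the Jun N-terminal kinases Mapk8, Mapk9 and Mapk10, and the scaffold proteins Mapk8ip1, Mapk8ip2 and Mapk8ip3, which are not kinases themselves. They were taken by name from 78258 genes of a count matrix after its Ensembl identifiers had been matched to mouse symbols. The names were chosen with earlier results of these data known. All 10 were found, and all 10 were among the 28564 genes that passed the filter on low counts. RNA came from lumbar dorsal root ganglia, levels 4 to 6, which hold the cell bodies of sensory neurons of the sciatic nerve together with glia and other cells. The samples were 10 male mice, each giving 1 library from the contralateral and 1 from the ipsilateral ganglia 1 day after sciatic nerve transection, so that there were 4 groups of 5 libraries. The 5 conditional knockout mice (cKO) were Ahr fl/fl Thy1CRE-ERT2/EYFP, in which the Thy1 promoter, active in neurons, drives a tamoxifen-dependent Cre against the aryl hydrocarbon receptor gene. The 5 control mice carried Ahr f/f or f/+ alleles, and their labels name no Cre. Both genotypes received 100 mg/kg tamoxifen by intraperitoneal injection on 5 days at 17 weeks of age, and the lesion followed 4 weeks later, so the contralateral ganglia came from lesioned and tamoxifen-treated mice and not from intact ones. The protocol describes nerve transection and was followed, although the labelled treatment reads as an injury of the spinal cord.

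In a sensory neuron, DLK and LZK sit on vesicles and in the axon, and are activated when the axon is cut or its cytoskeleton is disturbed. They phosphorylate the MAP2 kinases MKK4 (Map2k4) and MKK7 (Map2k7), which phosphorylate the JNK proteins, and the signal travels back to the nucleus with the JIP scaffolds and molecular motors, where Jun and Atf3 are switched on. Signalling through the cascade is set by phosphorylation and by turnover of the DLK protein, neither of which RNA counts measure.

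Libraries held 76.15 to 118.5 M counts (M, mega), and the members had from 1998 counts (the lowest library of Map3k13) to 70836 counts (the highest of Mapk8ip3), so the spread between mice rather than counting set the precision. Ahr, the targeted gene, had 21.32 to 27.20 CPM (counts per M counts of a library, scaled by the TMM method) in control and 19.51 to 20.99 CPM in cKO contralateral libraries, with no overlap, a difference of -16.0% that was not called (log2 fold change -0.25, SE 0.0661, adjusted p 0.103 in edgeR). On the ipsilateral side the ranges were 30.16 to 38.05 CPM and 28.91 to 36.82 CPM. Reads from every exon and every cell type enter these counts, and recombination of the floxed part was not analysed here. All 20 listed markers of sensory neurons were found in every library. All 6 fibroblast markers and all 8 muscle markers were found in every library too, with summed muscle markers from 4.98 to 1865 CPM. In such bulk RNA, fewer cells of a type and less RNA per cell cannot be told apart.

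Per length of merged exons, the scaffolds Mapk8ip1 and Mapk8ip2 stood highest, and the MAP3 kinases Map3k12 and Map3k13 were among the 3 lowest. In control contralateral ganglia the level was 110.5 ± 3.82 CPM per kb for Mapk8ip1 (JIP1) and 88.4 ± 4.04 CPM per kb for Mapk8ip2 (JIP2), as mean ± SD with n = 5. Map2k4 followed with 55.0 ± 1.70 CPM per kb, ahead of Mapk9 with 41.5 ± 1.90, Mapk8ip3 with 40.3 ± 1.28 and Mapk10 with 31.7 ± 1.28 CPM per kb. Below these came Map2k7 with 19.0 ± 0.708, Map3k12 with 13.6 ± 0.431, Mapk8 with 7.30 ± 0.190 and Map3k13 with 3.84 ± 0.314 CPM per kb. The libraries of neighbours in this order did not overlap in any of the 4 groups, except those of Mapk9 and Mapk8ip3, which overlapped in all 4 and exchanged places in both ipsilateral groups. Dividing by the longest annotated transcript instead of all merged exons moved Mapk8ip3 ahead of Map2k4 and Map3k12 ahead of Map2k7 in control contralateral ganglia, and left Mapk8ip1 highest and Map3k13 lowest.

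**Figure D1:**
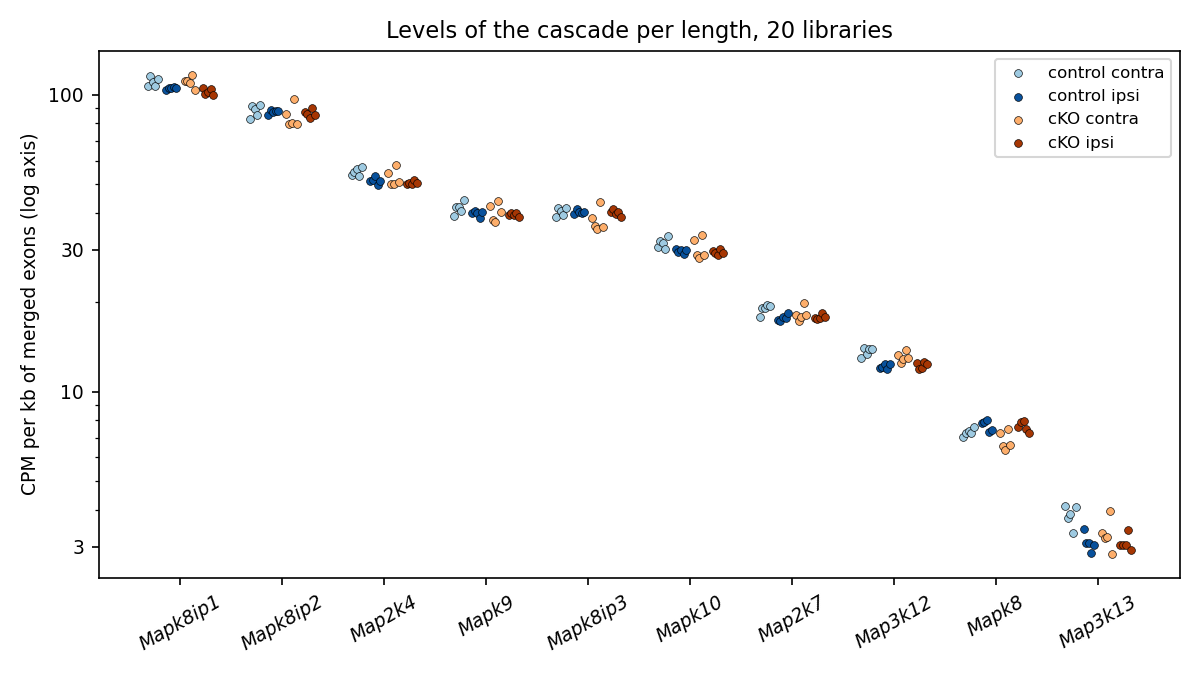
Level of each member in CPM per kb of merged exons (vertical log axis) in 20 libraries, coloured by group, with members ordered from high to low. Mapk8ip1 lies highest, near 110.5 CPM per kb in control contralateral libraries, Map3k13 lowest, near 3.84 CPM per kb, and the shifts between groups are small beside the distances between most genes.

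To see what the lesion did to the cascade's own transcripts, the lesioned side was set against the other side of the same genotype. In control mice 4 of 10 members fell on the lesioned side and 0 rose, at an adjusted p under 0.05: Map3k12, Map3k13, Map2k4 and Map2k7. Over all tested genes 29.9% were called, 16.0% lower and 13.8% higher. In cKO mice 3 members were called, Map3k12 and Mapk8ip1 lower and Mapk8 higher, where 31.3% of all genes were called, 15.1% lower and 16.2% higher. The ranges of the sides did not overlap for 2 members in control mice, where 23.6% of genes showed this, and for 0 members in cKO mice, where 20.2% did. The median log2 fold change of the members was -0.082 in control mice, beside -0.0047 over all genes, and -0.038 in cKO mice, beside -0.030 over all genes. The estimates ran from -0.31 (Map3k13) to 0.076 (Mapk8) in control mice and from -0.11 (Mapk8ip1) to 0.16 (Mapk8) in cKO mice.

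**Figure D2:**
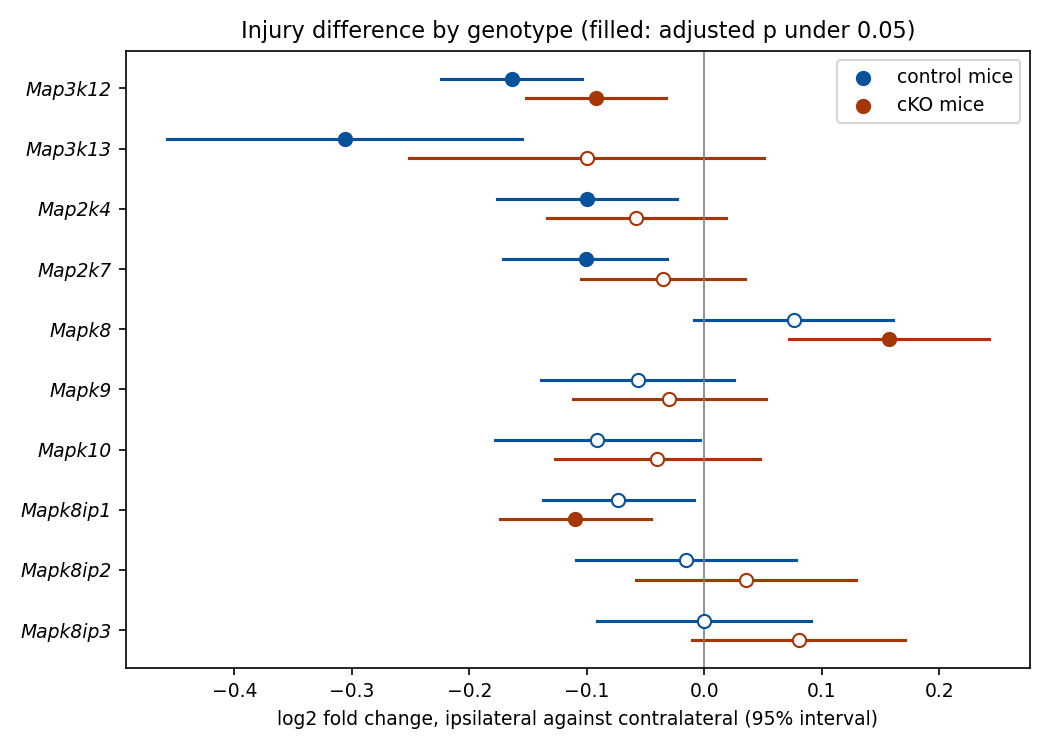
Log2 fold change of each member, ipsilateral against contralateral ganglia, with its 95% interval (horizontal axis), in control mice and in cKO mice; filled points have an edgeR adjusted p under 0.05. Map3k13 in control mice lies farthest from 0, at -0.31, and Mapk8 in cKO mice farthest on the positive side, at 0.16.

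Map3k12 (ENSMUSG00000023050.10), which encodes DLK, the kinase at the head of the cascade, fell in both genotypes. In the values that follow, libraries are in the order of mice H62, H63, H65, H96 and H97 for control and H61, H64, H95, H99 and H100 for cKO mice. Map3k12 had 116.6, 125.5, 120.5, 125.0 and 124.9 CPM in control contralateral ganglia and 108.2, 108.7, 111.4, 107.4 and 111.1 CPM in control ipsilateral ganglia. All 5 ipsilateral libraries lay below all 5 contralateral ones. The log2 fold change was -0.16 (SE 0.0286, 95% interval -0.22 to -0.10, adjusted p 0.000142), a difference of -10.7%. In cKO mice Map3k12 had 119.2, 112.2, 115.8, 124.3 and 116.5 CPM on the contralateral and 106.9 to 113.0 CPM on the ipsilateral side. The cKO groups overlapped by the contralateral library of H64 alone, and the log2 fold change was -0.092 (SE 0.0286, adjusted p 0.0171). Map3k12 was lower on the lesioned side in 10 of 10 mice. The cKO call was lost with no filter on low counts (-0.075) and with only the cKO libraries in the fit (-0.074). Library names fall into a lower and a higher range of mouse numbers, which the labels do not call batches, and within mice 61 to 65 and mice 95 to 100 Map3k12 had log2 fold changes of -0.12 and -0.19 in control and -0.073 and -0.098 in cKO mice, called only in the second range of control mice. A stretch of 17.5% of its merged exons lies opposite exons of Pcbp2, an RNA-binding protein gene on the other strand; Pcbp2 was not called in control mice (log2 fold change -0.0051) or cKO mice (-0.059).

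Map3k13 (ENSMUSG00000033618.8), which encodes LZK, the closest relative of DLK, showed the widest difference of the members in control mice. It had 35.99, 32.79, 33.69, 29.20 and 35.68 CPM in control contralateral ganglia and 30.03, 26.92, 26.95, 24.98 and 26.43 CPM in control ipsilateral ganglia. It was lower on the lesioned side in each of the 5 control mice, although the groups overlapped through the contralateral library of H96 and the ipsilateral library of H62. The log2 fold change was -0.31 (SE 0.0724, 95% interval -0.46 to -0.15, adjusted p 0.00253), a difference of -19.1%. Within mice 61 to 65 it was -0.27 (adjusted p 0.00873) and within mice 95 to 100 it was -0.33 (adjusted p 0.218). In cKO mice it had 29.15, 28.03, 28.26, 34.42 and 24.80 CPM contralaterally and 26.50, 26.50, 26.48, 29.85 and 25.61 CPM ipsilaterally. Those groups overlapped, H100 was higher on the lesioned side, and the difference was not called (log2 fold change -0.10, SE 0.0723, adjusted p 0.323). Per kb of merged exons, Map3k12 was 3.57 ± 0.382 times as high as Map3k13 in control contralateral, 3.93 ± 0.261 times in control ipsilateral, 3.97 ± 0.377 times in cKO contralateral and 3.97 ± 0.206 times in cKO ipsilateral ganglia, with overlap between all 4 groups (SD, n = 5).

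DLK and LZK are most abundant in neurons, so the sensory neuron markers are given beside them. Of 20 markers, 7 fell and 0 rose with injury in control mice, with a median log2 fold change of -0.047, and 4 fell and 1 rose in cKO mice, with a median of -0.078. The summed level of the list ranged from 15350 to 17500 CPM in control contralateral, 15210 to 16820 CPM in control ipsilateral, 14990 to 17710 CPM in cKO contralateral and 14710 to 15970 CPM in cKO ipsilateral libraries, with no marker at 0 in any library. Rbfox3, the neuronal nuclear antigen NeuN and a member of that list, had a log2 fold change of -0.267 in control and -0.145 in cKO mice, and fell in both (adjusted p 0.000362 and 0.0345). Markers of other cells were set beside the members too, with few calls. In control mice 13 of 13 macrophage markers had positive estimates (1 called higher, median log2 fold change 0.41), as did 7 of 7 endothelial (3 called higher, 0.40) and 6 of 6 fibroblast markers (0 called, 0.32), and of 6 satellite glia markers 2 rose and 1 fell. In cKO mice 0 of these macrophage, endothelial and fibroblast markers were called, with medians of 0.15, 0.073 and -0.48, and of the satellite glia markers 2 rose and 1 fell. No neutrophil, erythroid or muscle marker was called, although 7 of 7 neutrophil markers had positive estimates in control mice (median 0.57), and 5 of 5 erythroid (-0.41) and 8 of 8 muscle markers (-3.06) had negative ones in cKO mice. Of 10 Schwann cell markers 1 rose in control mice (median 0.053) and 0 were called in cKO mice (0.035). Lymphocyte markers had negative estimates for 7 of 8 in each genotype (-0.245 and -0.34), with 0 called. Summed macrophage markers ranged from 134.2 to 253.5 CPM contralaterally and from 154.2 to 292.6 CPM ipsilaterally in control mice, and from 131.4 to 366.2 CPM and 193.1 to 313.4 CPM in cKO mice. Summed endothelial markers ranged from 96.02 to 137.3 CPM and 113.1 to 165.7 CPM in control mice, and from 111.7 to 165.2 CPM and 127.1 to 150.4 CPM in cKO mice. The part of cell content in the differences of the members was not tested.

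The MAP2 kinases Map2k4 and Map2k7 fell by 6.69% and by 6.78% in control mice, and neither call held when certain single mice were left out. Map2k4 (ENSMUSG00000033352.12) encodes MKK4, which phosphorylates both JNK and p38, and had 250.3, 256.9, 262.1, 247.4 and 266.4 CPM contralaterally and 238.6, 240.3, 248.0, 232.3 and 237.9 CPM ipsilaterally in control mice. Each control mouse was lower on the lesioned side, the groups overlapped only between the contralateral library of H96 and the ipsilateral library of H65, and the log2 fold change was -0.10 (SE 0.0367, adjusted p 0.0448). The call was lost in 14 of 22 alternative settings, among them DESeq2 and leaving out any of 8 of the 10 mice (both libraries of H61, H62, H63, H65, H95, H96, H97 or H100), with an adjusted p from 0.00185 to 0.367 over all 22. In cKO mice Map2k4 had 253.8, 232.4, 232.5, 271.2 and 236.3 CPM contralaterally and 233.1 to 241.3 CPM ipsilaterally, and was not called (log2 fold change -0.058, adjusted p 0.253).

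Map2k7 (ENSMUSG00000002948.20) encodes MKK7, which is specific for JNK. It had 68.04, 73.33, 73.46, 74.80 and 74.22 CPM in control contralateral and 66.86, 66.19, 68.05, 67.85 and 70.21 CPM in control ipsilateral ganglia. All 5 control mice were lower on the lesioned side, and the groups overlapped through the contralateral library of H62, which stood below the other 4. The log2 fold change was -0.10 (SE 0.0334, adjusted p 0.0256), and the call was lost in 8 of 22 alternatives, including leaving out H63, H65, H95, H96 or H97. In cKO mice the contralateral libraries ran from 66.35 to 76.16 CPM and the ipsilateral ones from 67.06 to 70.30 CPM, with no call (log2 fold change -0.035, adjusted p 0.472). Of its merged exons 35.2% are shared with Gm49320, a gene model on the same strand, so that reads of the pair may have been split; Gm49320 had log2 fold changes of -0.063 and -0.030 and was not called. The ratio of Map2k4 to Map2k7 per kb was 2.90 ± 0.114 and 2.90 ± 0.0975 in control contralateral and ipsilateral ganglia, and 2.88 ± 0.0884 and 2.84 ± 0.0233 in cKO ganglia, within the spread between mice.

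**Figure D3:**
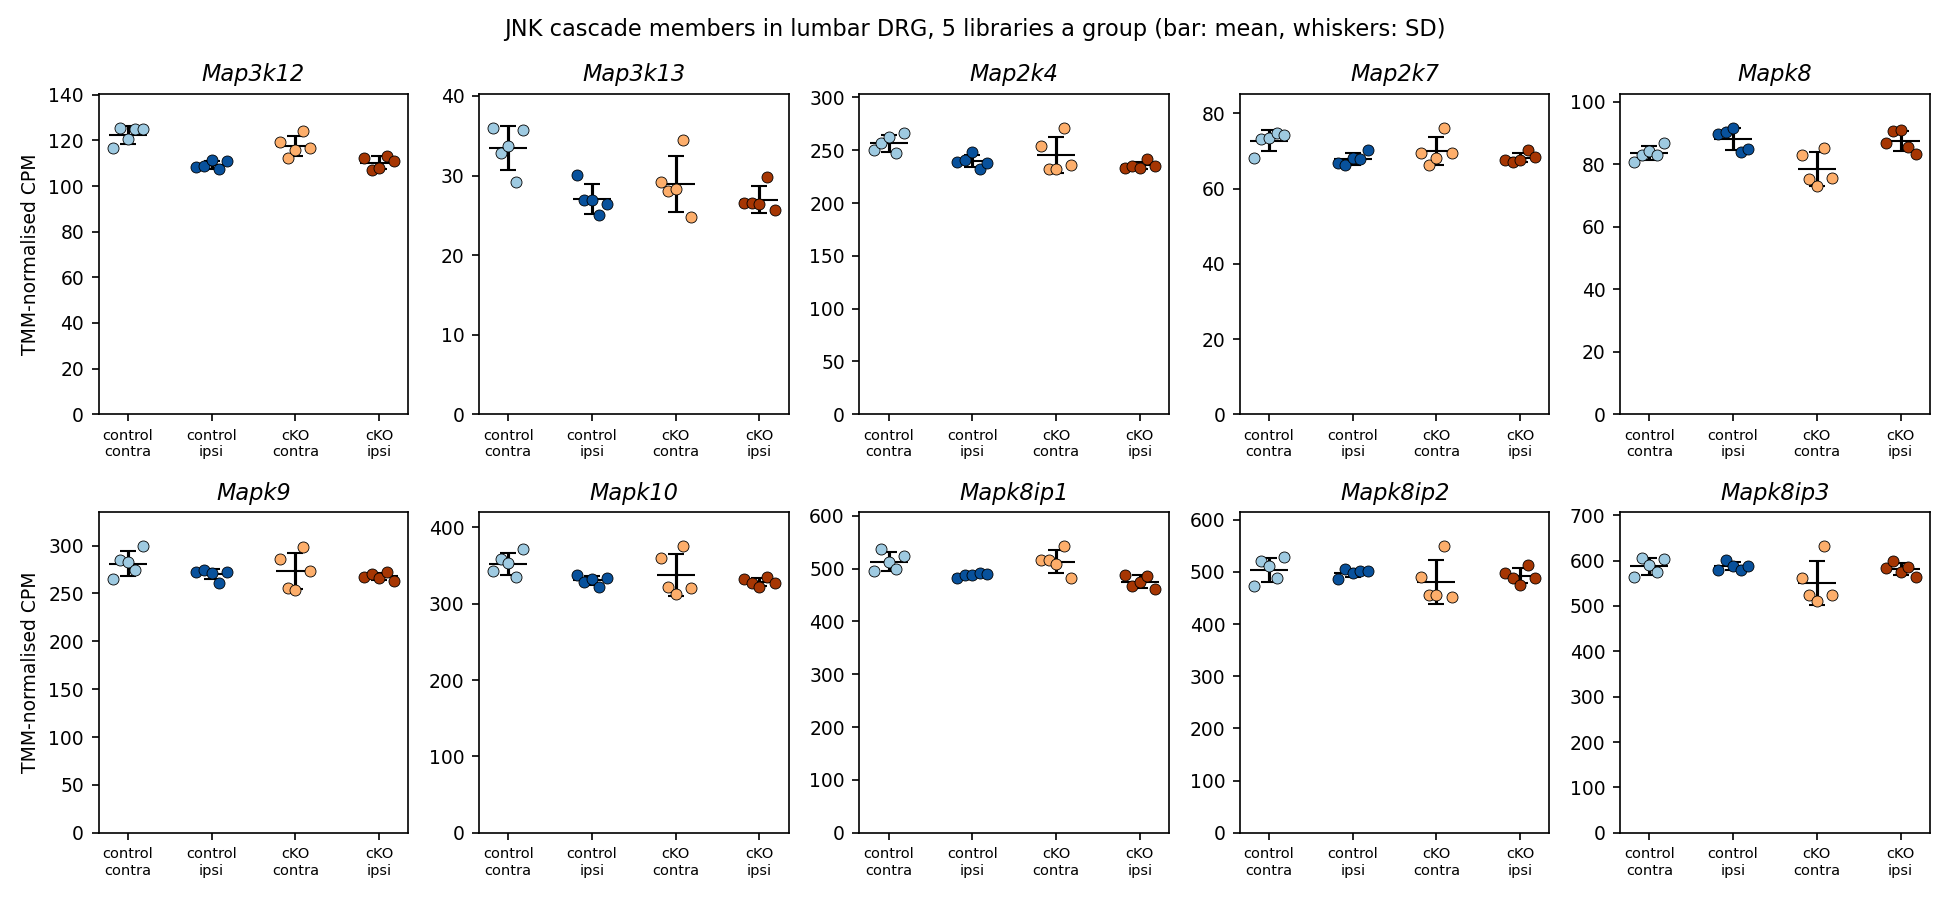
TMM-normalised CPM (vertical axes, from 0) of the 10 members in the 4 groups; each point is 1 library, the bar is the mean and the whiskers are the SD, n = 5. Map3k12 in control mice shows the clearest step, from 122.5 to 109.4 CPM on average, while Mapk8ip3 in control mice stays at 587.3 and 587.0 CPM, and cKO contralateral libraries are the most spread for most members.

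Among the JNK genes, Mapk8 was the member that rose. Mapk8 (ENSMUSG00000021936.15) encodes JNK1, the broadly expressed isoform, and had 83.05, 75.11, 72.92, 85.30 and 75.68 CPM in cKO contralateral and 86.92, 90.59, 90.84, 85.56 and 83.19 CPM in cKO ipsilateral ganglia. Each cKO mouse was higher on the lesioned side, by 0.0044 (H99) to 0.32 (H95) on the log2 scale, and the groups overlapped only through H99 contralaterally and H100 ipsilaterally. The log2 fold change was 0.16 (SE 0.0408, 95% interval 0.072 to 0.24, adjusted p 0.00528), a difference of 11.5%, and was 0.17 within mice 61 to 65 (adjusted p 0.045) and 0.16 within mice 95 to 100 (adjusted p 0.133). In control mice Mapk8 had 80.66, 83.06, 84.17, 82.97 and 86.66 CPM contralaterally and 89.60, 90.40, 91.62, 83.85 and 84.77 CPM ipsilaterally. It was higher in 4 of 5 control mice and lower in H97, and was not called (log2 fold change 0.076, adjusted p 0.178). It was called in control mice with only the control libraries in the fit (0.093, adjusted p 0.0331) and within mice 61 to 65 (0.15, adjusted p 0.0296), and had -0.0016 within mice 95 to 100 (adjusted p 0.994).

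Mapk9 (ENSMUSG00000020366.19) and Mapk10 (ENSMUSG00000046709.20), the genes of JNK2 and of JNK3, the isoform enriched in the nervous system, gave no call in either genotype in edgeR. Mapk9 had 264.6, 284.8, 283.2, 274.6 and 299.2 CPM contralaterally and 272.0, 274.8, 271.8, 261.4 and 272.2 CPM ipsilaterally in control mice, with log2 fold changes of -0.057 (95% interval -0.14 to 0.025) in control and -0.030 (-0.11 to 0.052) in cKO mice. Mapk10 had 342.8, 358.0, 353.2, 335.3 and 372.1 CPM contralaterally and 337.1, 328.0, 332.6, 322.2 and 333.9 CPM ipsilaterally in control mice. It was lower on the lesioned side in 5 of 5 control mice and 2 of 5 cKO mice, with log2 fold changes of -0.091 (adjusted p 0.114) and -0.040 (adjusted p 0.519). In control mice Mapk10 was called lower in both limma fits of log2 FPKM (-0.098, adjusted p 0.0185, and -0.056, adjusted p 0.0153). Within the summed CPM per kb of the JNK genes, the share of Mapk8 was 8.90% to 9.31% in control contralateral and 9.55% to 10.3% in control ipsilateral libraries, and 8.74% to 8.96% and 9.62% to 10.4% in the cKO groups. Thus the Mapk8 share was higher on the lesioned side with no overlap in either genotype, although Mapk8 itself overlapped between the sides and was not called in control mice. The share also depends on Mapk9 and Mapk10, whose estimates were negative in both genotypes. How often shares of other genes separate in this way was not tested. The Mapk10 share was 39.4 ± 0.499% contralaterally and 38.5 ± 0.382% ipsilaterally in control mice, and 39.2 ± 0.664% and 38.5 ± 0.45% in cKO mice (SD, n = 5), with libraries of the sides that met at 38.7% in control mice and overlapped in cKO mice. The Mapk9 share was 51.6 ± 0.478% and 51.6 ± 0.302% in control and 52.0 ± 0.720% and 51.5 ± 0.149% in cKO mice, with overlap in both. The size of these shares depends on the gene length used.

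The scaffolds differed among themselves. Mapk8ip1 (ENSMUSG00000027223.16) encodes JIP1, which tethers MKK7, JNK and an upstream MAP3 kinase and binds kinesin. It had 494.9, 537.7, 511.8, 498.4 and 523.1 CPM in control contralateral and 482.4, 487.9, 488.0, 491.2 and 489.4 CPM in control ipsilateral ganglia. These groups did not overlap, yet the difference was not called (log2 fold change -0.073, SE 0.0307, adjusted p 0.0807). It was lower on the lesioned side in 5 of 5 control mice, and was called in limma-voom with the mouse as a random effect (-0.072, adjusted p 0.0425) and in both fits of log2 FPKM (-0.088 and -0.086). In cKO mice Mapk8ip1 fell from 516.9, 516.5, 507.7, 542.0 and 481.9 CPM to 487.5, 467.8, 474.0, 486.5 and 461.5 CPM, with overlap through the contralateral library of H100. That log2 fold change was -0.11 (SE 0.0307, 95% interval -0.17 to -0.046, adjusted p 0.00897), and Mapk8ip1, like Map3k12, was lower on the lesioned side in 10 of 10 mice. It was not called within mice 61 to 65 (-0.11) or mice 95 to 100 (-0.10), or with only the cKO libraries in the fit (-0.091). Its share of the summed CPM per kb of the scaffolds went from 45.7% to 46.7% in control contralateral to 44.7% to 45.4% in control ipsilateral libraries, and from 45.5% to 49.0% to 44.2% to 45.4% in cKO libraries.

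Mapk8ip2 (ENSMUSG00000022619.6) encodes JIP2, a neuronal relative of JIP1, and Mapk8ip3 (ENSMUSG00000024163.19) encodes JIP3, which links JNK and DLK to kinesin and dynein for axonal transport. Mapk8ip2 had 472.4, 520.0, 511.2, 488.4 and 527.8 CPM contralaterally and 485.9 to 505.2 CPM ipsilaterally in control mice, and was not called in control (log2 fold change -0.016, adjusted p 0.845) or cKO mice (0.036, adjusted p 0.605). Mapk8ip3 had 563.1, 605.3, 590.3, 573.7 and 603.9 CPM contralaterally and 579.1, 601.3, 587.0, 580.1 and 587.8 CPM ipsilaterally in control mice. The control sides overlapped throughout, with a log2 fold change of -0.00048 (95% interval -0.091 to 0.091). In cKO mice Mapk8ip3 had 560.5, 523.7, 511.7, 631.3 and 523.0 CPM contralaterally and 583.7, 600.1, 574.8, 586.0 and 563.2 CPM ipsilaterally. It was higher ipsilaterally in 4 of 5 cKO mice and lower in H99, and was not called (0.081, adjusted p 0.176); without both libraries of H99 the log2 fold change was 0.14 and the adjusted p 0.00339. Exons of Eme2 (10.7% of its merged exons, same strand), Mrps34 (8.99%, opposite strand) and Nme3 (3.96%, opposite strand) overlap Mapk8ip3. All 3 of these genes fell in both genotypes, with log2 fold changes in control and cKO mice of -0.11 and -0.10 for Eme2, -0.14 and -0.17 for Mrps34, and -0.34 and -0.38 for Nme3.

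The effect of genotype was asked on each side. On the contralateral side 0 of 10 members were called in edgeR, beside 0.0735% of all tested genes (0.049% lower), and DESeq2 and limma-voom also called 0 members. The ranges of the genotypes overlapped for all 10 members, beside 1.52% of genes without overlap. All 10 estimates were lower in cKO mice, with a median log2 fold change of -0.063 beside -0.013 over all genes. In edgeR 3 members had an unadjusted p under 0.05, as did 5006 of all 28564 tested genes. The widest was Map3k13, with a mean of 33.47 CPM in control and 28.93 CPM in cKO ganglia (log2 fold change -0.21, SE 0.0723, adjusted p 0.15), followed by Mapk8ip3 (-0.095, adjusted p 0.268) and Mapk8 (-0.091, adjusted p 0.256). The lower sign was not particular to the members. Of the pathway lists described below, it was shared by 12 of 12 DLK regulators (median -0.076) and 12 of 15 other MAP3 kinases (-0.060). So it was by 9 of 11 other scaffolds and motors (-0.058) and 10 of 12 p38 and ERK genes (-0.031). Fewer shared it among axonal substrates (5 of 9) and cell death genes (2 of 6). This comparison and the injury comparison of control mice share the control contralateral libraries, and the one of cKO mice shares the cKO contralateral libraries. On the ipsilateral side 0 members were called, beside 0.007% of all genes (0.0035% higher and 0.0035% lower), and 0 had ranges that did not overlap, beside 0.599% of genes. In edgeR 0 members had an unadjusted p under 0.05, beside 674 of all 28564 tested genes. DESeq2 called 0 members. The ipsilateral estimates ran from -0.037 (Mapk8ip1) to 0.013 (Map3k12), with 95% intervals reaching from -0.15 to 0.15.

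One mouse carried much of the spread on the contralateral side. In the cKO contralateral group the library of H99 was the highest of the 5 for 10 of 10 members, at a mean log2 deviation of 0.15 from the group. The same library had the highest summed sensory neuron markers of its group, 17710 CPM against 14990 to 16380 CPM in the other 4, and the lowest summed fibroblast markers, 934.8 CPM against 1003 CPM (H61), 1685 CPM (H100), 1980 CPM (H95) and 2236 CPM (H64). Without both libraries of H99, 5 members were called lower in cKO contralateral ganglia in edgeR: Map3k13 (log2 fold change -0.28, adjusted p 0.00946), Mapk8ip3 (-0.15, 0.00828), Mapk8ip2 (-0.12, 0.0278), Map2k4 (-0.10, 0.0334) and Map2k7 (-0.088, 0.0443). In that fit 3326 of all tested genes were called, against 21 of 28564 with all 10 mice. Fibroblast marker sums in control contralateral libraries were 801.6 to 1356 CPM, against 934.8 to 2236 CPM in cKO contralateral libraries. Between genotypes on this side, all 6 fibroblast markers (median log2 fold change 0.81), 13 of 13 macrophage markers (0.26) and 7 of 7 neutrophil markers (0.73) had higher estimates in cKO mice. So did 7 of 8 muscle (1.34), 5 of 5 erythroid (0.47), 7 of 7 endothelial (0.17) and 4 of 6 satellite glia markers (0.075). Lower estimates were found for 16 of 20 sensory neuron (median -0.045), 6 of 10 Schwann cell (-0.040) and 7 of 8 lymphocyte markers (-0.48). In each of these lists 0 markers were called. Their part in the differences of the members was not tested.

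**Figure D4:**
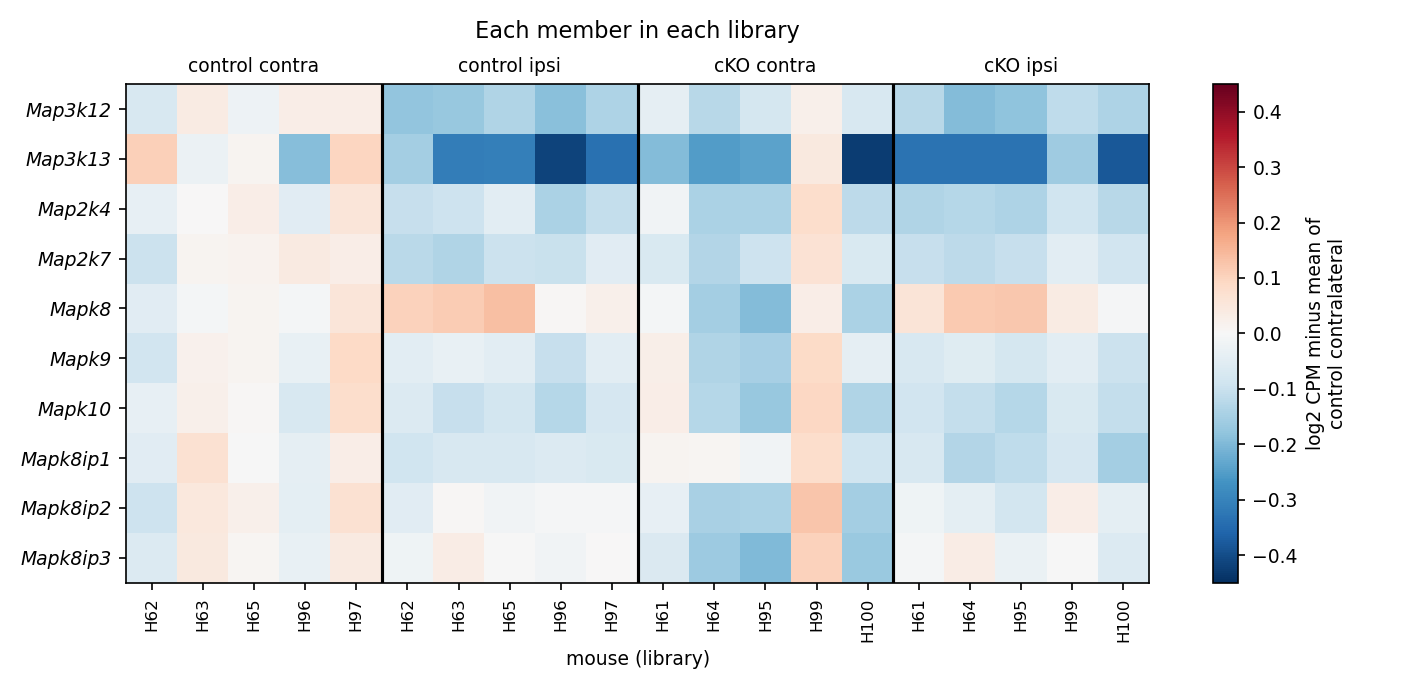
Log2 CPM of each member in each of the 20 libraries minus its mean in the control contralateral group (colour scale), with mice named under the columns. Map3k13 is the bluest row in the ipsilateral columns, Mapk8 is above the control contralateral mean in the ipsilateral columns of most mice, and the cKO contralateral column of H99 is higher in all 10 rows than the other 4 columns of its group.

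Whether injury acted differently in the genotypes was tested as an interaction. In edgeR 0 of 10 members were called, beside 0.0% of all genes. There 0 members and 2799 of all 28564 tested genes had an unadjusted p under 0.05, and DESeq2 called 0 members and 11 of all genes. The estimates were positive for 9 members, meaning a higher ipsilateral level relative to contralateral in cKO than in control mice, with a median of 0.059 beside 0.011 over all genes. Positive estimates were also found for 12 of 12 DLK regulators (median 0.077), 12 of 15 other MAP3 kinases (0.054) and 9 of 12 p38 and ERK genes (0.027). Among cell death genes 2 of 6 were positive (-0.0995). The interaction estimates of markers of other cells were negative for 13 of 13 macrophage (median -0.34), 7 of 7 neutrophil (-0.71) and 6 of 6 fibroblast markers (-0.78). They were also negative for 7 of 7 endothelial (-0.33), 5 of 5 erythroid (-0.45) and 8 of 8 muscle markers (-3.61). Schwann cell (7 of 10 negative, -0.075), satellite glia (5 of 6, -0.155) and lymphocyte markers (4 of 8, -0.0086) had both signs. Of the sensory neuron markers, 12 of 20 had positive estimates (0.043). In these lists 0 markers were called, and their part in the estimates of the members was not tested. Map3k13 had the widest, 0.21 (SE 0.102, 95% interval -0.0072 to 0.42, adjusted p 0.518), and Mapk8ip1 the only negative one, -0.037 (95% interval -0.13 to 0.054). Hence the calls of Map3k13, Map2k4 and Map2k7 in control mice, and of Mapk8 and Mapk8ip1 in cKO mice, are not shown to differ between genotypes.

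The list of nuclear targets and injury genes was described beside the kinases. Jun, the transcription factor whose N-terminus JNK phosphorylates, had 108.0, 105.5, 98.39, 103.0 and 99.37 CPM in control contralateral and 296.2, 300.7, 283.4, 295.6 and 285.2 CPM in control ipsilateral ganglia. The groups lay far apart, with a log2 fold change of 1.51 (SE 0.0368) in control and 1.70 (SE 0.0370) in cKO mice. Atf3, a transcription factor of injured sensory neurons, had 9.27 to 13.78 CPM contralaterally and 405.1 to 438.1 CPM ipsilaterally in control mice, 8.46 to 9.84 CPM and 369.7 to 461.8 CPM in cKO mice, with log2 fold changes of 5.23 and 5.50. Of 13 listed nuclear targets and injury genes, 11 rose in each genotype and 1 fell in control mice, with a median log2 fold change of 1.51 in control and 1.70 in cKO mice. The list was mixed: Jund (0.24 and 0.15, called in both), Atf2 (-0.13, called, and -0.070) and Elk1 (-0.075 and -0.041, not called), named after their values were seen, lay within the range of the kinases or near it. Sprr1a, a small proline-rich protein of regenerating neurons, rose by 5.32 in control and by 5.35 in cKO mice. The only gene of all pathway lists called between genotypes was Jun, on the contralateral side, with 85.66 to 94.47 CPM in cKO against 98.39 to 108.0 CPM in control libraries, no overlap, and a log2 fold change of -0.21 (SE 0.0362, adjusted p 0.0278); ranges were this separate in 1.52% of genes.

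The counts of the pathway lists stand beside 29.9% of all tested genes called in control mice and 31.3% in cKO mice, with median log2 fold changes over all genes of -0.0047 and -0.030. Of 12 listed genes that stabilise, degrade or activate DLK, 2 rose and 3 fell in control mice, and 2 rose and 1 fell in cKO mice, with medians of 0.021 and 0.061, so the share called was above that of all genes in control mice and below it in cKO mice. Tnik, a MAP4 kinase, rose from 63.1 ± 5.08 to 107.3 ± 3.90 CPM in control mice (log2 fold change 0.77, SE 0.0813) and by 0.93 in cKO mice. Map4k4, a MAP4 kinase upstream of DLK and JNK, rose by 0.33 and 0.39. Map4k3, another MAP4 kinase, fell by 0.20 in control and by 0.098 in cKO mice. The other calls, named after their values were seen, were Mink1 (-0.16) and Zdhhc17, a palmitoyltransferase of DLK (-0.16), both lower in control mice.

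Of 15 other MAP3 kinases that can feed JNK, 5 rose and 6 fell in control mice, and 5 rose and 4 fell in cKO mice, with medians of -0.043 and 0.043. Map3k6 rose by 0.74 and 0.81 and Map3k20 (ZAK, a sensor of stalled ribosomes) by 0.47 and 0.58, in control and cKO mice. Taok3 had log2 fold changes of -0.31 and -0.23, and Map3k5 (ASK1, a kinase activated by oxidative stress) of -0.28 and -0.22, and both fell in both genotypes. Among 11 other scaffolds and motor proteins, 1 rose and 3 fell in control mice and 2 rose and 1 fell in cKO mice, with medians of -0.042 and -0.026, near the share of all genes. The scaffold Sh3rf1 (POSH) rose by 0.63 and 0.51, and Arrb2, the gene of beta-arrestin 2, fell with -0.23 and -0.16.

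In the parallel p38 and ERK branches, 2 of 12 genes rose and 3 fell in control mice, and 3 rose and 3 fell in cKO mice, with medians of -0.013 and 0.031. Mapk14, which encodes p38 alpha, rose from 77.8 ± 0.860 to 99.4 ± 2.36 CPM in control mice (log2 fold change 0.35) and by 0.48 in cKO mice. Map2k6, the p38 activator MKK6, fell (-0.57 and -0.61), as did Map2k5 (-0.22 and -0.21), while its partner Mapk7, the gene of ERK5, rose by 0.12 and 0.31. Of 7 dual-specificity phosphatases that act on JNK, 3 rose in each genotype and 0 fell, with medians of 0.39 and 0.062. Dusp1 rose from 28.6 ± 0.902 to 60.7 ± 5.34 CPM in control mice (log2 fold change 1.09) and by 1.01 in cKO mice, and Dusp10 rose by 0.59 and 0.45.

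Among cell death genes downstream of JNK, Pmaip1 (Noxa) rose by 2.15 in control and by 2.05 in cKO mice, to 12.0 ± 1.60 CPM in control ipsilateral ganglia (SD, n = 5). Of 9 listed axonal JNK substrates and axon maintenance genes, 1 rose and 2 fell in control mice and 1 rose in cKO mice, with medians of 0.029 and 0.0062. No gene of that list was called in the same direction in both genotypes. Its calls, named after their values were seen, were Stmn2 (0.15), Dcx (-0.51) and Nmnat2 (-0.14) in control mice and Sarm1, the axon-destroying NADase (0.28), in cKO mice.

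**Figure D5:**
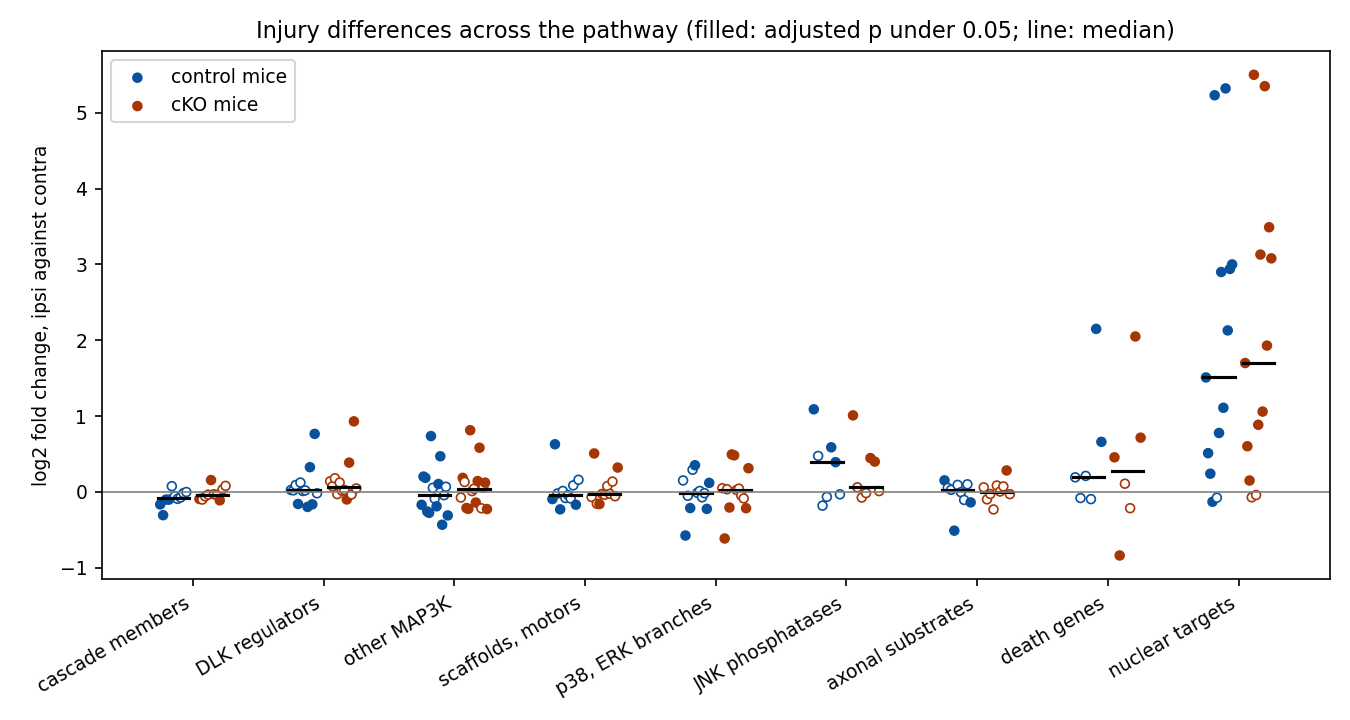
Log2 fold change, ipsilateral against contralateral, of each gene of the cascade and of 8 pathway lists (vertical axis) in control and cKO mice; filled points have an edgeR adjusted p under 0.05 and lines are list medians. The cascade members lie within -0.31 and 0.16, with medians of -0.082 and -0.038. The medians of the nuclear targets lie at 1.51 and 1.70, and those of the other lists from -0.043 to 0.39.

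The genes most alike to each member were taken as the highest Pearson r of log2 CPM over the 20 libraries, among 13112 genes whose mean reached 5 CPM. All points share libraries, depth and the 4 groups, so r is a description. Map3k12 was most like Rbfox3 (r = 0.972), Ube2ql1 (0.967) and Prdm12 (0.965). Map3k13 was nearest to Pcyox1l (0.929), Dgki (0.907) and Tbc1d30 (0.897). Map2k4 and Mapk10 shared Prkaa1, a catalytic subunit gene of AMP-activated kinase, among their nearest genes (0.963 and 0.948), and Mapk10 was nearest to Ccser2 (0.957). Mapk8 was nearest to the kinesin gene Kif2a (0.962), Mapk9 to Adam23 (0.939), Map2k7 to Slc25a22 (0.926) and Mapk8ip1 to Kcnk1 (0.936). The gene most like Mapk8ip2 was another scaffold of the cascade, Mapk8ip3 (0.911), whose own nearest gene was Ctif (0.960).

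Promoter sequences were set beside these values to show which starts of the cascade carry letters known from binding sites of Jun and Atf family proteins. The 250 bases before each annotated start were taken from RefSeq on GRCm38.p6, where 9 of 10 members matched, with 14 starts in all; Mapk8ip1 did not match. The motifs searched on both strands were TGANTCA, TGACGTCA and TGACATCA, none of which can lie inside another, and which were found in 6.75%, 1.55% and 2.93% of 32851 promoters. Of the 14 starts, TGANTCA was found in 1, the second start of Map2k7, and TGACGTCA in 1, the first start of Mapk10, beginning 92 and 29 bases before the start. Jun held TGACATCA, beginning 45 bases before its start, and the promoter of Atf3 held 0 of the 3 motifs. The first starts of Map3k12 and Map3k13, the members whose log2 fold changes were most negative in control mice, are shown beside the 3 that hold a motif, with the motif in capitals and each sequence 5′ to 3′ on the strand of its gene.
Map3k12, chr15:102517005-102517254, minus strand: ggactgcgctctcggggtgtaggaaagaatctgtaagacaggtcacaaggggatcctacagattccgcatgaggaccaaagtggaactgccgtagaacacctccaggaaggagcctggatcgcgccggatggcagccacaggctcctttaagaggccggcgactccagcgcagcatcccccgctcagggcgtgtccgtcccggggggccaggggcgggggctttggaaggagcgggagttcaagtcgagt
Map3k13, chr16:21891719-21891968, plus strand: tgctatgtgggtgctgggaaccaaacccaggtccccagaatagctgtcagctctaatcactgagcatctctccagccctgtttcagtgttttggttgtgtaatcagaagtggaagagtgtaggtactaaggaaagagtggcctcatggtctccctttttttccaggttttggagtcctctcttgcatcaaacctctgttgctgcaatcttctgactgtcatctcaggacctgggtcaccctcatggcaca
Map2k7, second start, chr8:4239855-4240104, plus strand: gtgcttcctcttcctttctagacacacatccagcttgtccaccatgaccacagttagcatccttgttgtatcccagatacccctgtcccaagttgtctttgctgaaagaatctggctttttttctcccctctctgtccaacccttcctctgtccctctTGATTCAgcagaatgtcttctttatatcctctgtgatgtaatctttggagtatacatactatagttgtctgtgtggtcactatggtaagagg
Mapk10, first start, chr5:103211335-103211584, minus strand: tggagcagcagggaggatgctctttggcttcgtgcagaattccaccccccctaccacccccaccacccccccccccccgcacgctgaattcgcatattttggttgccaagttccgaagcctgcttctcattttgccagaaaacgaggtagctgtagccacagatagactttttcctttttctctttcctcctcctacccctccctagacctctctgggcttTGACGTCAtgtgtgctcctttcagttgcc
Jun, chr4:95052223-95052472, minus strand: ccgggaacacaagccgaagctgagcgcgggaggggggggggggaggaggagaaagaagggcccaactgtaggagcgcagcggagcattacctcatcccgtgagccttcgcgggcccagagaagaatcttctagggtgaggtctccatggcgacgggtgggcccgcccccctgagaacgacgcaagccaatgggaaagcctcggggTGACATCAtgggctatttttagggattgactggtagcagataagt
The GC content of these stretches was 62.8% for Map3k12, 49.2% for Map3k13, 44.4% for Map2k7, 54.8% for Mapk10 and 61.2% for Jun, beside a median of 52.4% over the promoter table. A match is a description of letters, and no binding was measured here.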

How the data were processed

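Stranded mRNA libraries were read as paired 150 bp reads, per the labels' protocols. The deposited count table holds whole-number counts per gene without normalization. The deposited FPKM table served only as an alternative. The submitters' processing notes name HISAT2 and Picard and the builds mm10 and mm39; the counting program, annotation release and strand setting are not given in the sources used here. Symbols and exon lengths came from GENCODE M21; 51487 of 78258 identifiers, with 98.1% of the counts, had a symbol.

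Counts were fitted in R 4.3.3 with edgeR 4.0.16 (TMM, filterByExpr with a minimum count of 10 and a minimum total of 15, robust quasi-likelihood test) over all 20 libraries, with a mean per group. P-values were adjusted by Benjamini-Hochberg over 28564 genes per comparison and called under 0.05. Both libraries of a number come from the same mouse, which pairs them. Deviations of the pair from the group means correlated at a median of 0.308 (-0.16 to 0.668, over 0.1 in 8 of 10 mice, 19365 genes). The replicate block (mouse as a fixed term) changed no call of a member, and limma-voom with the mouse as a random effect added 1, Mapk8ip1 in control mice.

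The members and lists were chosen with earlier results of these data known. Named genes were the members, Ahr, Jun, Atf3, up to 2 highest and 2 lowest genes per list called alike in both genotypes with at least 1 CPM, list genes called between genotypes, and the 3 genes most alike to each member. Alternatives were DESeq2 1.42.0, limma 3.58.1 (voom, and log2 FPKM with a pseudocount of 0.1 or 1), RLE factors, other filters, only the libraries compared, the mouse number range as a covariate or a subset, and leaving out each mouse.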

Additional observations from a re-analysis of the deposited data

Results flagged for a closer look

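In 4 of 60 groups of 5 values, 1 library stood far from the other 4, judged by its gap to the nearest of them as a share of the group's whole range, with a critical value of 0.71. Chance gives about 1 in 20, or 3 of 60. In cKO ipsilateral ganglia H99 was highest for Map3k13, with 29.85 CPM against 25.61 to 26.5 CPM (share 0.791), and for Map2k4, with 241.3 CPM against 233.1 to 235.4 CPM (share 0.725). In control contralateral ganglia H62 was lowest for Map2k7, with 68.04 CPM against 73.33 to 74.8 CPM (share 0.782). In control ipsilateral ganglia H96 was lowest for Mapk9, with 261.4 CPM against 271.8 to 274.8 CPM (share 0.771).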

How the results depend on the processing

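With a replicate block for the mouse, 4 members were called for injury in control mice, 3 in cKO mice and 0 in the interaction, as without the pairing. The 4 calls of control mice became 2 with no filter on low counts, 2 with mice 61 to 65 only (Map3k13 lower, and Mapk8 newly called higher) and 1 with mice 95 to 100 only (Map3k12), 6 in both fits of log2 FPKM, which added Mapk10 and Mapk8ip1, and ranged from 2 to 4 when each mouse was left out. The 3 calls of cKO mice became 1 with only the libraries compared, 1 with mice 61 to 65 only and 0 with mice 95 to 100 only, and 4 in both fits of log2 FPKM, which added Map2k4. Contralateral genotype calls ranged from 0 to 5 when each mouse was left out, with 5 without H99; DESeq2 called 1041 genes there, against 21 in edgeR, but 0 members. The mouse number ranges come from the library names and are not labelled as batches; their use as subsets was chosen after seeing the data, and each holds fewer mice. Over 1070 values of members under up to 22 alternatives, 0 called values changed sign, 32 calls were lost, 15 were gained and 65 values uncalled in both changed sign; apart from the smaller subsets, the cause was not tested. Map3k12 in control mice lost its call only with mice 61 to 65 (adjusted p 0.0576) and Map3k13 only with mice 95 to 100 (adjusted p 0.218). With log2 FPKM and a pseudocount of 1, Map3k13 in control mice had the lowest difference in size, -0.057, since a pseudocount shrinks low values.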
